A study of Homo sapiens with 12 samples.

Results

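Among the genes that HK-2 cells already expressed in vehicle, 58 were raised by aristolochic acid I (AAI) both with and without knockdown of POLR2A. These genes were chosen by their measured levels. A gene was expressed when it reached a CPM of at least 3 (reads of the gene per 1000000 reads of the library) in each of the 6 libraries from cells in dimethyl sulfoxide (DMSO, the vehicle). It was counted as raised when its lowest CPM in the 6 AAI libraries was over 2 times its highest CPM in the 6 DMSO libraries. Of 35238 genes in the table, 11067 were expressed in this sense, and the 58 raised genes made up 0.524% of them. Their change with AAI is therefore given as a description, with no test. Tests are given for the comparison of knockdown with control cells, which is not the contrast of the rule but rests on the same libraries.

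HK-2 is an established line of human kidney proximal tubule cells. All cells received siRNA at the time of exposure, either a scrambled duplex (SCR) or a duplex against POLR2A (siB), at 10 nM, and were then kept for 24 hours in DMSO or in 25 µM AAI dissolved in it. Every control thus also carried transfection, siRNA and DMSO. There were 4 groups of 3 libraries (SCR DMSO, SCR AAI, siB DMSO and siB AAI) of polyA RNA, with 15844015 to 42805294 reads each.

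AAI is a plant toxin taken up by the proximal tubule, where its activated metabolites form bulky adducts on DNA. Such adducts block RNA polymerase II on the template, and a long gene offers more sites for a block than a short one. POLR2A encodes RPB1, the catalytic subunit of that polymerase. Cells under genotoxic stress are known to induce transcription factors such as ATF3. They can also fail to stop transcription at the ends of genes, so that reads run into the gene next downstream.

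POLR2A itself lay at 258, 288 and 306 CPM in SCR DMSO and at 138, 143 and 139 CPM in siB DMSO. The AAI libraries held 673, 719 and 729 CPM of it in SCR AAI and 266, 220.4 and 210.3 CPM in siB AAI. In both media every siB library was under every SCR library. In a principal component analysis the leading axis (58.6% of the variance) split AAI from DMSO, and on the next one SCR DMSO replicate 2 stood apart from its group (-61.6 against 57.5 and 20.1). Without that library the same rule gave 67 genes. All 58 were among them, which is fixed in advance, since leaving out a library can only loosen the rule. Of 26 proximal tubule markers, 12 were at 1 CPM or more in every library. These were SLC5A2, GGT1, MME, PAX8, CDH6, CDH16, KRT8, KRT18, EPCAM, VIM, HAVCR1 and SOX9, while LRP2, CUBN and SLC34A1 were not among them. Fibroblast and pericyte markers summed to 69.08 to 117.9 CPM in DMSO and 50.44 to 75.55 CPM in AAI. Podocyte markers summed to 93.4 to 129.2 CPM in DMSO and 38.63 to 76.42 CPM in AAI. Immune markers summed to 74.1 to 109 CPM in DMSO and 74.7 to 91.8 CPM in AAI, with CD3E at 0 in all libraries. Few markers of these lists were at 1 CPM or more in every library. They were LUM, COL1A1 and RGS5 of 9 fibroblast and pericyte markers, PODXL and SYNPO of 5 podocyte markers and CD68 and CSF1R of 8 immune markers. The defining endothelial and distal nephron markers summed to at most 12.6 and 16.2 CPM in any library.

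The bases upstream of the members' RefSeq starts were searched for known promoter motifs, and 5 stretches are shown. They belong to the 4 members with the largest ratio of lowest AAI to highest DMSO level among those that have a RefSeq entry and upstream bases outside annotated exons, and to ATF3, the one member on a pathway list. Each is read 5′ to 3′ on the strand of the gene, from the RefSeq promoter table on GRCh38.p14, with bases that lie in an annotated exon left out. Capitals mark matches on either strand to the TATA box (TATAAA), the box with the letters CCAAT, the GC box (GGGCGG), the E-box (CACGTG), the cyclic AMP element (TGACGTCA), the AP-1 site (TGANTCA), the core of the aryl hydrocarbon receptor site (GCGTG) or a p53 half-site. No match of one motif overlapped that of another in these 5 stretches. The RefSeq start lay past the start of the GENCODE gene span, by 20 bases for DNHD1, 56 for ZNF513, 73 for ATF3, 460 for RAPGEFL1 and 12369 for TRPV1, so the stretches of RAPGEFL1 and TRPV1 lie within the gene spans given for them. The intervals were chr11:6497030-6497259 (plus strand) for DNHD1, chr2:27380791-27380984 (minus strand) for ZNF513, chr17:40177285-40177469 (plus strand) for RAPGEFL1, chr17:3597099-3597292 (minus strand) for TRPV1 and chr1:212565157-212565333 (plus strand) for ATF3.
DNHD1: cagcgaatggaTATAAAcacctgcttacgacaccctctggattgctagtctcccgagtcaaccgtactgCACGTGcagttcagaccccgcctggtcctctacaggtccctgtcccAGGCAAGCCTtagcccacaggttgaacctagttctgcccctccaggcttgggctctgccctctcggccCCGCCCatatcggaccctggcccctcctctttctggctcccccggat
ZNF513: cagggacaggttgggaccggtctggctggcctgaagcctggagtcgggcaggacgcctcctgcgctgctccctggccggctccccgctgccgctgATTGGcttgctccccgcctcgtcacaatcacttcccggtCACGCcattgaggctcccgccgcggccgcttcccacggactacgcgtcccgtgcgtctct
RAPGEFL1: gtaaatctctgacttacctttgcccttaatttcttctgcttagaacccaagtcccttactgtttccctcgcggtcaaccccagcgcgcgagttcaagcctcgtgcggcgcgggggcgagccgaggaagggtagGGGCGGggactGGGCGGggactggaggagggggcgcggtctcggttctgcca
TRPV1: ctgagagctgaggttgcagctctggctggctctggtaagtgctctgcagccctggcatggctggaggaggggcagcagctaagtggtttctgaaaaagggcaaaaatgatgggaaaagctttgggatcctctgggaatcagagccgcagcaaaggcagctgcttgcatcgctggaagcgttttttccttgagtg
ATF3: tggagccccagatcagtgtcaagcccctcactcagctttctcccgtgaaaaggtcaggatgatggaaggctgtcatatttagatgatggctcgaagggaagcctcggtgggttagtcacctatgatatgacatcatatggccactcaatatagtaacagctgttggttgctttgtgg

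The DNHD1 stretch held a TATA box 239 bases before the start, an E-box 181 bases before it, a p53 half-site at 135 bases and a GC box at 67 bases. ZNF513 had a CCAAT box on the opposite strand at 155 bases and a GCGTG on the opposite strand at 116 bases. RAPGEFL1 had GC boxes at 52 and 41 bases. The stretches of TRPV1 and ATF3 held none of these letters, though the window of ATF3 had a CCAAT and a GC box in or across the exon bases that are left out here.

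Over the 35 members with a promoter entry (250 bases before to 50 after the start), the motif shares were close to those of expressed genes or below them. For 6 of 8 motifs the share in expressed genes lay within the members' 95% interval, and for the GC box (40.9% to 72.0%) and GCGTG (20.8% to 50.8%) it lay above. A GC box was found in 20 (57.1%), against 73.0% of 8889 expressed genes and 45.0% of all 35116 promoters in the table. CCAAT was found in 12 (34.3%, against 37.1% and 34.6%) and GCGTG, the core of the aryl hydrocarbon receptor site, in 12 (34.3%, against 52.4% and 36.5%). The E-box was in 5 members (14.3%, against 10.9% and 7.26%): DNHD1, HSD11B1L, AMN, LRRC37B and WDR66. TATAAA was in DNHD1 and NBPF19 alone (5.71%, against 4.82% and 11.5%). The cyclic AMP element TGACGTCA was in ZNF426 (2.86%, against 3.51% and 1.85%), the AP-1 site TGANTCA in CLDN15 (2.86%, against 4.10% and 7.71%) and the p53 half-site in DNHD1 (2.86%, against 5.03% and 6.63%). The median GC content of the window was 63.3% in members and 66.0% in expressed genes.

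The change with AAI ran from about 2-fold to over 20-fold in each background, where the rule asked for over 2-fold in both. The fold of mean CPM had a median of 4.45 in SCR cells (2.60 to 27.8) and of 4.72 in siB cells (2.31 to 20.1). On the log2(CPM + 1) scale the median change was 2.04 in SCR cells and 2.06 in siB cells, beside 0.18 and 0.10 over all genes tested. Most members were quiet in vehicle. Mean DMSO levels ran from 4.16 to 102 CPM with a median of 7.56 CPM, against 37.5 CPM for expressed genes as a whole, and 35 of 58 members (60.3%) lay under 10 CPM, against 11.3% of expressed genes. CPM gives a share of the RNA in a library, so less RNA per cell or fewer cells of a kind cannot be told apart from a rise of one gene's share.

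**Figure D1:**
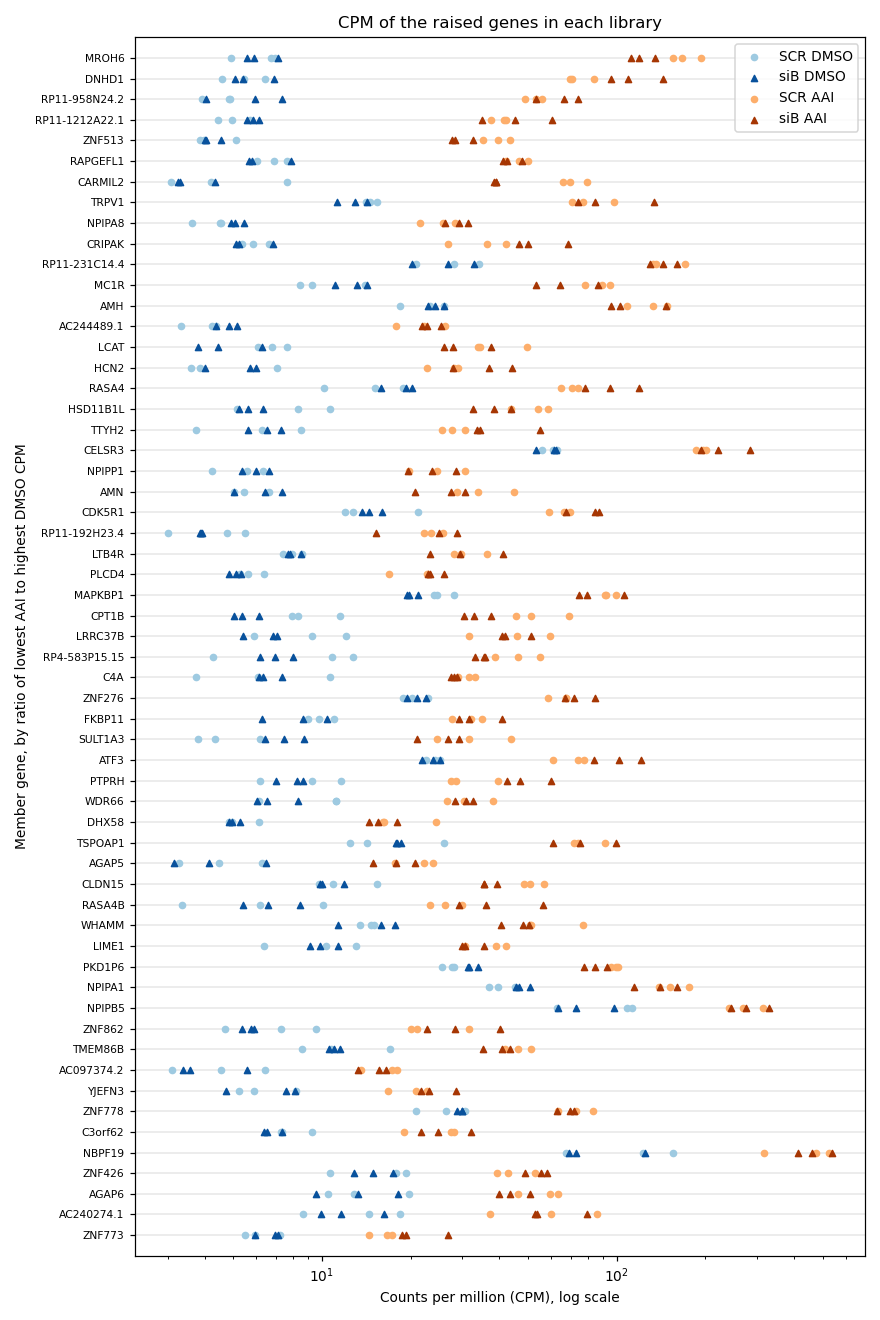
CPM of each of the 58 raised genes (rows, from the largest to the smallest ratio of lowest AAI to highest DMSO CPM) in the 12 libraries, on a log axis, with circles for SCR and triangles for siB, blue for DMSO and orange to brown for AAI. In every row the 6 AAI points lie right of the 6 DMSO points, as the choice of genes requires, from MROH6 (ratio 15.9) down to ZNF773 (2.01).

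The pathway lists say little about the members. Of 348 expressed genes on 17 pathway lists, among them p53 targets, NRF2 targets, the integrated stress response, heat shock, DNA repair and the interferon response, a single one was a member: ATF3, on the early response list. That is 0.287%, against 0.524% of all expressed genes, a difference that rests on 1 gene and was not tested. The lists did not hold every gene of their pathways. The members DHX58 and CLDN15 were not on the interferon and cell junction lists. Sorted by what they are known to do (a sorting made after their values were seen), 8 were receptors, ligands, channels or adhesion proteins and 11 were regulators of small GTPases, kinases or lipid signals. A further 7 were transcription factors or zinc finger genes, 7 enzymes or secretory proteins, 4 cytoskeletal or ciliary and 2 epithelial surface genes, and 1 an RNA sensor. The rest were 6 genes of duplicated families, 4 little known genes and 8 transcripts with clone names, which carry no described function here.

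ATF3 encodes a basic leucine zipper factor that stress of many kinds induces. In SCR cells ATF3 lay at 22.6, 24.3 and 25.2 CPM with DMSO and at 77.6, 60.95 and 73.9 CPM with AAI. The siB libraries lay at 23.9, 25.2 and 21.9 CPM with DMSO and at 121, 83.99 and 102 CPM with AAI. The fold was 2.95-fold in SCR and 4.31-fold in siB cells. The siB AAI libraries were all above the SCR AAI libraries, and the DMSO levels of both backgrounds overlapped.

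The zinc finger genes were ZNF513, ZNF276, ZNF862, ZNF778, ZNF426 and ZNF773. They are 6 of the 292 expressed genes with a ZNF name and number (2.05%, against 0.524% of all expressed genes). These shares were not compared at like DMSO levels, although 60.3% of members lay under 10 CPM in DMSO, against 11.35% of expressed genes. ZNF513 (chromosome 2, 27377235 to 27380790, minus strand), a factor known from retinal disease, had the largest fold of them. Its level was 3.97, 5.12 and 3.86 CPM in SCR DMSO and 39.7, 43.4 and 35.3 CPM in SCR AAI. It was 4.06, 4.55 and 4.01 CPM in siB DMSO and 32.6, 28.3 and 27.6 CPM in siB AAI. Its fold was 9.14-fold in SCR and 7.01-fold in siB cells. ZNF276 rose 3.11-fold in SCR and 3.54-fold in siB cells, ZNF862 3.38-fold in SCR and 5.38-fold in siB cells, ZNF778 2.81-fold in SCR and 2.31-fold in siB cells and ZNF426 2.82-fold in SCR and 3.60-fold in siB cells. ZNF773 was the member closest to the limit of the rule, with a fold of 2.60-fold in SCR and 3.25-fold in siB cells.

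Among receptors and channels, TRPV1 (chromosome 17, 3565444 to 3609411, minus strand), the heat- and capsaicin-gated cation channel, had the largest fold in siB cells. The SCR libraries held 15.3, 14.6 and 14.1 CPM of TRPV1 with DMSO and 98, 70.7 and 76.8 CPM with AAI. The siB libraries held 14.3, 11.2 and 12.99 CPM and 134, 73.8 and 84.4 CPM. The fold was 5.58-fold in SCR and 7.59-fold in siB cells. One library, siB AAI replicate 1, lay above all others. MC1R (chromosome 16, 89912119 to 89920973, plus strand), the melanocortin receptor that directs pigment type, had the largest fold of these genes in SCR cells. In SCR cells MC1R lay at 9.24, 13.97 and 8.46 CPM with DMSO and at 89.2, 94.8 and 78.5 CPM with AAI. The siB libraries lay at 11.1, 13.2 and 14.3 CPM with DMSO and at 86.5, 53.4 and 64.5 CPM with AAI. The fold was 8.28-fold in SCR and 5.29-fold in siB cells. Its AAI levels overlapped between SCR and siB cells, and the interaction had an adjusted p of 0.394.

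AMH (chromosome 19, 2249309 to 2252073, plus strand) encodes anti-Müllerian hormone, a secreted ligand of the TGF-beta family. Its level was 23.3, 26.1 and 18.5 CPM in SCR DMSO and 133, 149 and 108 CPM in SCR AAI. It was 22.96, 24.2 and 25.98 CPM in siB DMSO and 147, 95.4 and 103 CPM in siB AAI. Vehicle levels of 18.5 to 26.1 CPM thus gave way to at least 95.4 CPM in every AAI library. The pacemaker channel HCN2 rose 5.51-fold in SCR and 6.95-fold in siB cells, the anion channel TTYH2 4.52-fold in SCR and 6.33-fold in siB cells and the leukotriene B4 receptor LTB4R 3.95-fold in SCR and 3.92-fold in siB cells. PTPRH, a receptor tyrosine phosphatase, reached 27.5 to 39.5 CPM in SCR AAI and 42.4 to 59.96 CPM in siB AAI, with no overlap. CELSR3, an atypical cadherin of planar polarity, was among the most abundant members, at 53.2 to 63.0 CPM in DMSO and 187 to 284 CPM in AAI.

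Several members act on small GTPases and kinases. RAPGEFL1 (chromosome 17, 40177010 to 40195656, plus strand), a relative of the exchange factors for Rap, had levels that overlapped between backgrounds in both media. The SCR libraries held 6.89, 7.62 and 6.03 CPM of RAPGEFL1 with DMSO and 49.9, 46.8 and 42.3 CPM with AAI. The siB libraries held 5.64, 7.85 and 5.80 CPM and 47.6, 42.5 and 41.1 CPM. Its fold was 6.77-fold in SCR and 6.81-fold in siB cells. RASA4 and RASA4B are near-identical GTPase activators for Ras, and reads may be split between them. RASA4 rose 4.75-fold in SCR and 5.28-fold in siB cells and RASA4B 4.05-fold in SCR and 5.96-fold in siB cells.

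CRIPAK, an inhibitor of the kinase PAK1, has no position in the annotation used. In SCR cells CRIPAK lay at 6.61, 5.35 and 5.85 CPM with DMSO and at 42.02, 26.8 and 36.4 CPM with AAI. The siB libraries lay at 6.84, 5.23 and 5.13 CPM with DMSO and at 68.2, 49.98 and 46.7 CPM with AAI. Each siB AAI library was above each SCR AAI library, while the DMSO libraries overlapped. CDK5R1, the p35 activator of CDK5, rose 4.25-fold in SCR and 5.43-fold in siB cells, and MAPKBP1, a JNK-binding scaffold known as a nephronophthisis gene, 3.68-fold in SCR and 4.31-fold in siB cells. The phospholipase PLCD4 rose 3.62-fold in SCR and 4.72-fold in siB cells, the lymphocyte adaptor LIME1 3.76-fold in SCR and 3.17-fold in siB cells and TSPOAP1, a RIM-binding protein of synapses, 4.50-fold in SCR and 4.34-fold in siB cells. AGAP5 and AGAP6, of a duplicated family of Arf GTPase activators, rose 4.53-fold in SCR and 3.89-fold in siB cells and 3.93-fold in SCR and 3.28-fold in siB cells, respectively.

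The cytoskeletal members held some of the largest folds. DNHD1 (chromosome 11, 6497260 to 6593758, plus strand) carries a dynein heavy chain domain and is known from sperm tails. Its level was 5.45, 4.60 and 6.40 CPM in SCR DMSO and 69.3, 70.6 and 83.9 CPM in SCR AAI. It was 6.88, 5.41 and 5.07 CPM in siB DMSO and 144, 96.1 and 109 CPM in siB AAI. The fold was 13.6-fold in SCR and 20.1-fold in siB cells, and with AAI every siB library exceeded every SCR library. CARMIL2 (chromosome 16, 67644988 to 67657569, plus strand) regulates actin capping and is best known in T cells. The SCR libraries held 4.21, 7.59 and 3.09 CPM of CARMIL2 with DMSO and 65.7, 79.4 and 69.8 CPM with AAI. The siB libraries held 3.25, 3.29 and 4.35 CPM and 39.01, 38.3 and 39.1 CPM. Here the siB AAI libraries lay within 1 CPM of each other and below all SCR AAI libraries. WHAMM, which nucleates actin on membranes, rose 4.13-fold in SCR and 3.11-fold in siB cells, and WDR66 (current symbol CFAP251), a protein of cilia, 3.34-fold in SCR and 4.39-fold in siB cells.

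Enzymes of lipid and small molecule metabolism were spread over unrelated routes. LCAT (chromosome 16, 67939750 to 67944131, minus strand) esterifies cholesterol in plasma lipoproteins. In SCR cells LCAT lay at 7.62, 6.80 and 6.07 CPM with DMSO and at 49.8, 34.5 and 33.8 CPM with AAI. The siB libraries lay at 6.28, 3.79 and 4.46 CPM with DMSO and at 37.6, 25.9 and 27.97 CPM with AAI. Its fold was 5.76-fold in SCR and 6.30-fold in siB cells. CPT1B, the muscle form of the enzyme that loads fatty acids for mitochondria, lay lower in every siB library than in any SCR library, in both media. Its level was 11.5, 8.27 and 7.94 CPM in SCR DMSO and 68.96, 45.5 and 51.4 CPM in SCR AAI. It was 5.34, 5.05 and 6.13 CPM in siB DMSO and 37.5, 32.8 and 30.4 CPM in siB AAI. SULT1A3, a sulfotransferase for catechols with a near-identical copy, rose 7.003-fold in SCR and 3.42-fold in siB cells. FKBP11, a proline isomerase of the endoplasmic reticulum, rose 3.19-fold in SCR and 4.01-fold in siB cells, and complement C4A 4.58-fold in SCR and 4.25-fold in siB cells. HSD11B1L, a relative of the cortisone reductase, rose 6.47-fold in SCR and 6.68-fold in siB cells, and TMEM86B, a lysoplasmalogenase, 3.85-fold in SCR and 3.62-fold in siB cells.

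A pair of members belongs to epithelial surfaces. AMN, the membrane partner of cubilin in protein uptake by the proximal tubule, lay at 5.04 to 7.30 CPM in DMSO and at 20.7 to 45.0 CPM in AAI. CLDN15, a claudin that forms cation pores, lay at 9.78 to 15.3 CPM and at 35.4 to 56.9 CPM. DHX58, which encodes the RNA sensor LGP2, lay at 4.85 to 6.10 CPM in DMSO and at 14.4 to 24.4 CPM in AAI.

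Members included genes of recent segmental duplications, mainly of the NPIP and RASA4 families. Of 6 expressed NPIP genes, 4 were members (NPIPA8, NPIPA1, NPIPB5 and NPIPP1), as were both expressed RASA4 genes, 2 of 7 AGAP genes, 1 of 12 NBPF genes, 1 of 3 PKD1 pseudogenes and 1 of 3 SULT1A genes, beside 0.524% of all expressed genes. The median ratio of lowest AAI to highest DMSO level was 2.19 over the NPIP and 2.76 over the RASA4 genes, but 1.28 over NBPF, 1.02 over AGAP and 0.405 over SULT1A genes. These families were picked after the values were seen. Copies share long identical stretches, so their counts are uncertain and may not be independent of each other. NBPF19 was the most abundant member. The SCR libraries held 156, 67.4 and 123 CPM of NBPF19 with DMSO and 476, 318 and 525 CPM with AAI. The siB libraries held 125, 72.96 and 69.02 CPM and 538, 461 and 412 CPM. NPIPB5 followed with 62.8 to 112 CPM in DMSO and 241 to 328 CPM in AAI. Per kilobase of transcript, the order differed. NPIPA1 led with 136 CPM per kb in AAI, followed by AMH with 67.8, FKBP11 with 47.3 and MROH6 with 45.1, while NBPF19 had 32.6 and DNHD1 6.42 CPM per kb.

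The largest ratio of all, 15.9, was that of MROH6 (chromosome 8, 143566192 to 143572772, minus strand), a HEAT-repeat gene with no established role. In SCR cells MROH6 lay at 6.75, 6.92 and 4.93 CPM with DMSO and at 167, 194 and 155 CPM with AAI. The siB libraries lay at 5.90, 7.08 and 5.58 CPM with DMSO and at 135, 119 and 112 CPM with AAI. Its fold was 27.8-fold in SCR and 19.7-fold in siB cells. LRRC37B rose 5.02-fold in SCR and 6.93-fold in siB cells, C3orf62 3.12-fold in SCR and 3.89-fold in siB cells and YJEFN3 3.12-fold in SCR and 3.59-fold in siB cells. Among the clone-named transcripts, RP11-958N24.2 had the largest fold, 11.6-fold in SCR and 11.2-fold in siB cells, RP11-1212A22.1 rose 8.03-fold in SCR and 7.97-fold in siB cells and RP11-231C14.4 was the most abundant, at 20.2 to 34.1 CPM in DMSO and 130.0 to 170.3 CPM in AAI.

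The limits of the rule cut through a continuous range. Just inside the 2-fold limit lay ZNF773 (ratio 2.01), AC240274.1 (2.02) and AGAP6 (2.03), and just outside lay C2CD2L (1.99), ARHGAP27 (1.99) and CIDECP (1.95). Just inside the limit of 3 CPM lay RP11-192H23.4, CARMIL2 and AC097374.2, with lowest DMSO levels of 3.02, 3.09 and 3.11 CPM. Genes just outside it included AIFM3 and NEIL1, with lowest DMSO levels of 2.87 and 2.83 CPM and ratios of 4.77 and 3.28.

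**Figure D2:**
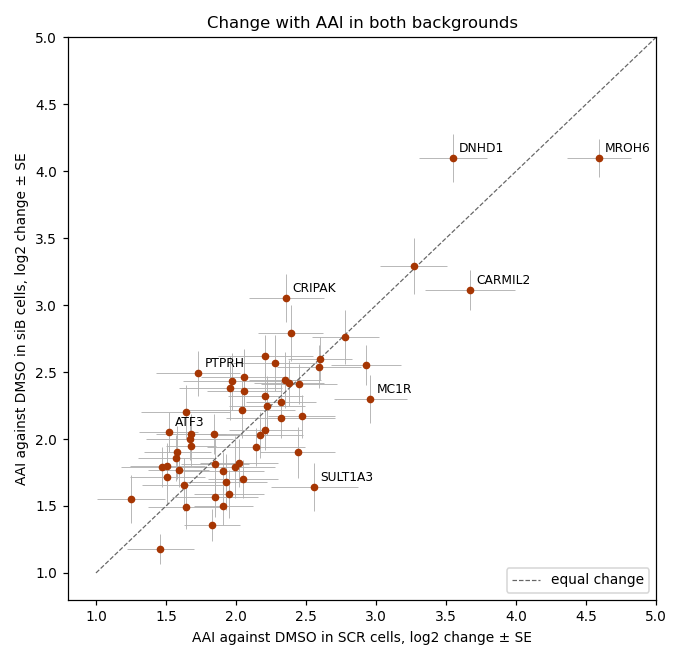
Log2 change of each of the 58 genes with AAI, in SCR cells (horizontal) and in siB cells (vertical), on the log2(CPM + 1) scale, with bars of 1 standard error (SE) and a dashed line of equal change. MROH6 (4.59 and 4.10), DNHD1 (3.55 and 4.10) and CARMIL2 (3.67 and 3.11) lie farthest out, followed by RP11-958N24.2 (3.27 and 3.29). The rest gather near the line between about 1 and 3.

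The comparison of siB with SCR cells was not the contrast of the rule, but the rule was not independent of it. A member had to stay over 2 times its DMSO level in every AAI library of both backgrounds, so a gene that the knockdown brought below that was left out beforehand. The counts of members below, the lack of 2-fold calls among them and their intervals are in part set by that choice. The question was whether knockdown of POLR2A changed their level in AAI-treated cells. By limma over 14946 genes with no replicate term, 454 were higher (3.04%) and 94 lower (0.629%) in siB AAI than in SCR AAI. A call needed an adjusted p under 0.05 and at least 2-fold. None of the 58 members was called in either direction. At an unadjusted p under 0.05 there were 7 higher and 7 lower members (24.1%, against 25.5% of all genes tested), and voom on the recovered reads also called none at 2-fold. The median change of the members was -0.03, beside 0.00 over all genes tested. For 52 of 58 members the 95% interval of the change lay within 2-fold either way, and 27 had a higher and 31 a lower fitted mean in siB cells.

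At an adjusted p under 0.05 with no fold limit, 3 members differed. DNHD1 was higher in siB cells, with a log2 change of 0.62 (SE 0.18, 95% interval 0.23 to 1.01, adjusted p 0.0486), against 5.49% of all genes that were higher by this measure. CARMIL2 was lower, with a log2 change of -0.86 (SE 0.16, 95% interval -1.20 to -0.52, adjusted p 0.00665), as was CPT1B, with a log2 change of -0.69 (SE 0.19, 95% interval -1.09 to -0.28, adjusted p 0.0397), against 3.79% of all genes that were lower. CARMIL2 stayed under an adjusted p of 0.05 in 20 of 21 alternatives (0.0532 in the fit over all 4 groups), CPT1B in 8 and DNHD1 in 3, with highest adjusted p of 0.17 and 0.208. Leaving out SCR AAI replicate 3 or any siB AAI replicate left CARMIL2 as the single member of the 3. Same-numbered AAI libraries deviated together, and with the replicate block 8 members were higher and 9 lower at an adjusted p under 0.05, beside 15.2% and 13.8% of all genes, and again none reached 2-fold.

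The highest changes were those of CRIPAK, with a log2 change of 0.64 (SE 0.21, 95% interval 0.19 to 1.09, adjusted p 0.0733), and PTPRH, with a log2 change of 0.63 (SE 0.20, 95% interval 0.20 to 1.06, adjusted p 0.0638). They were followed by DNHD1, RASA4B with a log2 change of 0.55 (SE 0.23, 95% interval 0.06 to 1.05, adjusted p 0.148) and ATF3 with a log2 change of 0.51 (SE 0.18, 95% interval 0.13 to 0.90, adjusted p 0.0884). At the other end, below CARMIL2 and CPT1B in size, were CLDN15, with a log2 change of -0.49 (SE 0.16, 95% interval -0.84 to -0.15, adjusted p 0.0724), MROH6, with a log2 change of -0.49 (SE 0.16, 95% interval -0.83 to -0.15, adjusted p 0.0689), and HSD11B1L, with a log2 change of -0.44 (SE 0.18, 95% interval -0.83 to -0.05, adjusted p 0.145). These 7 did not pass here, but did with the replicate block, at adjusted p of 0.000345 (CRIPAK), 0.000453 (PTPRH), 0.00289 (RASA4B), 0.00345 (ATF3), 0.00747 (CLDN15), 0.00445 (MROH6) and 0.0187 (HSD11B1L) by limma. In all, 8 members had every siB AAI library above every SCR AAI library and 10 had every one below, against 15.1% and 15.8% of all genes tested.

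One library bears on these values. For 52 of the 58 members siB AAI replicate 1 was the highest of its group, against 50.1% of expressed genes, and it was also the most shallowly sequenced. Without it the median change of the members was -0.12, and without siB AAI replicate 2, the lowest for 42 members, it was 0.09. The part of depth in this was not tested.

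**Figure D3:**
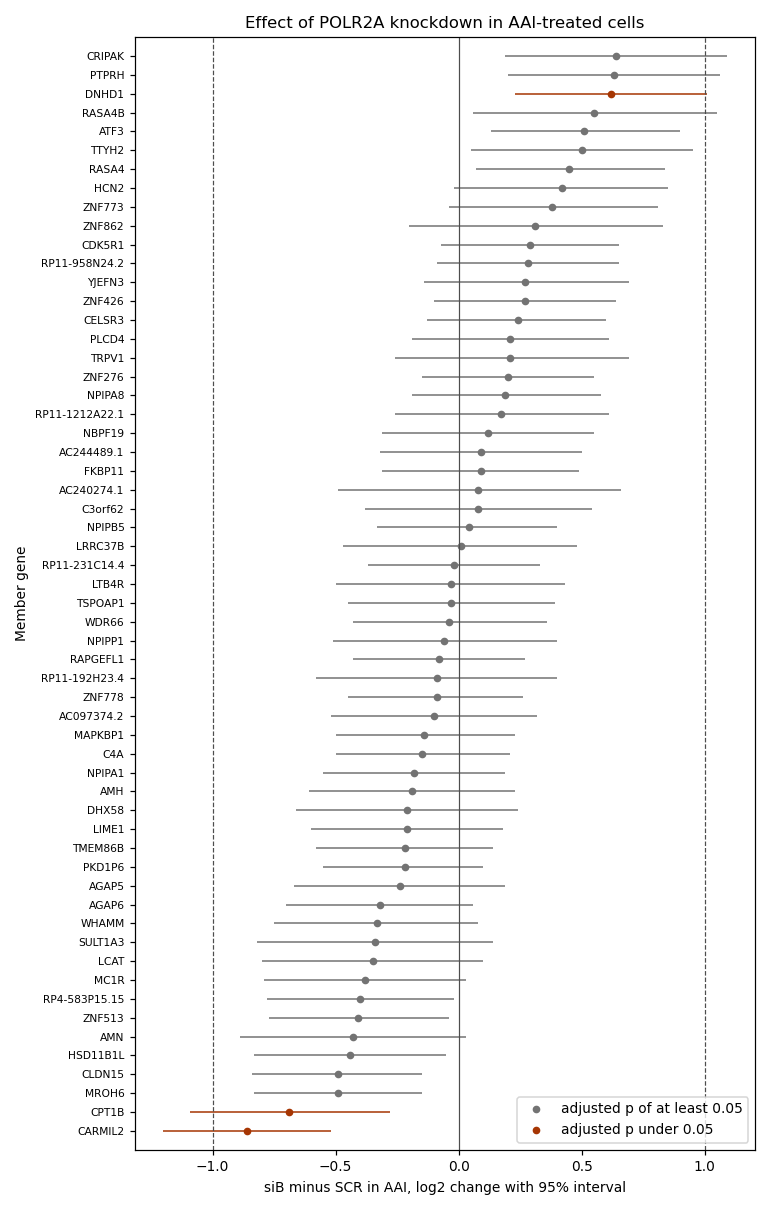
Log2 change of each of the 58 genes between siB and SCR cells in AAI (points) with 95% intervals (lines), ordered by size, with dashed lines at 2-fold. DNHD1, CPT1B and CARMIL2, in brown, had an adjusted p under 0.05, and no point lies beyond a dashed line.

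In DMSO the knockdown gave no call among 13606 genes (0.0%), members included. POLR2A itself was not called either, though its siB DMSO libraries all lay below its SCR DMSO libraries (means 139.7 and 284.0 CPM). The lack of calls in DMSO therefore cannot show that the knockdown left the members unchanged. The members' changes ran from -0.64 to 0.57 with a median of -0.03, beside 0.06 over all genes, with 1 member higher and 1 lower at an unadjusted p under 0.05 (3.45%, against 4.73% of all genes tested), and voom called no member. The interaction, which asks whether the response to AAI differed between backgrounds, passed for 247 of 15325 genes (1.61%) and for no member, on log2 CPM or by voom. At an unadjusted p under 0.05 there were 5 members (8.62%, against 13.3% of all genes tested), ATF3, CRIPAK and PTPRH with a larger rise in siB cells and PKD1P6 and SULT1A3 with a smaller one. For PKD1P6 and SULT1A3 the siB level was higher in vehicle as well as lower in AAI. Their log2 change from SCR to siB was 0.25 and 0.57 in DMSO and -0.22 and -0.34 in AAI. SULT1A3 had the lowest adjusted p, with an interaction of -0.91 (SE 0.34, adjusted p 0.26). The 95% interval of the interaction lay within 2-fold either way for 33 of 58 members, so for the other 25 a 2-fold difference lay within the interval.

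The position of the members in the genome was not part of the choice. A total of 49 members (84.5%) had a position in GENCODE release 44 on hg38, and the 8 clone-named transcripts and CRIPAK had none. Most members were short. Spans under 30 kb were found in 38 of 49 (77.6%), against 46.5% of expressed genes and 36 of the 60 genes that met the mirrored rule for lowering by AAI. No member was longer than 100 kb (0 of 49, 95% interval by Wilson's method up to 7.27%), against 19.3% of expressed genes and 33.3% of lowered genes. The median span was 19.4 kb, against 33.6 kb in expressed genes and 18.9 kb in lowered genes, so a short median was common to raised and lowered genes. Among the expressed genes under 10 CPM in DMSO, the range in which most members lay, 53.9% were short and 15.5% long. The longest members were DNHD1 (96.5 kb), WDR66 (85.3 kb) and NBPF19 (81.3 kb), and the shortest TMEM86B (2.15 kb), AMH (2.76 kb) and LIME1 (2.82 kb).

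Members had a higher GC content than expressed genes, as had lowered genes, and many lay on gene-dense chromosomes. The canonical transcript had a median GC content of 57.3%, against 48.6% in expressed genes, 54.0% in expressed genes under 30 kb and 55.9% in lowered genes. Of 49 members, 11 were on chromosome 16 (22.4%, against 4.802% of expressed genes), 8 on chromosome 19 (16.3%, against 7.07%) and 7 on chromosome 17 (14.3%, against 6.29%). Among expressed genes under 10 CPM in DMSO, chromosomes 16, 19 and 17 held 3.91%, 11.9% and 5.61%. Among expressed genes under 30 kb they held 6.12%, 11.1% and 7.87%. The members on chromosome 16 include the duplicated NPIP genes, NPIPP1 and PKD1P6, which lie side by side, and SULT1A3.

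Many members began shortly after the end of another active gene. An expressed gene on the same strand (at least 10 CPM on average in DMSO) ended within 10 kb upstream of 21 of 49 members (42.9%, 95% interval 30.02% to 56.7%), against 14.04% of expressed genes, 20.53% of those under 30 kb, 13.3% of those under 10 CPM and 18.3% of lowered genes. Within 5 kb the share was 32.7% in members, 8.79% in expressed genes, 13.9% in those under 30 kb and 16.7% in lowered genes. Within 1 kb it was 16.3%, 4.87% in expressed genes under 30 kb, 2.64% in all expressed genes and 8.33% in lowered genes. These distances were looked at after the members were known, and genes are not independent replicates.

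**Figure D4:**
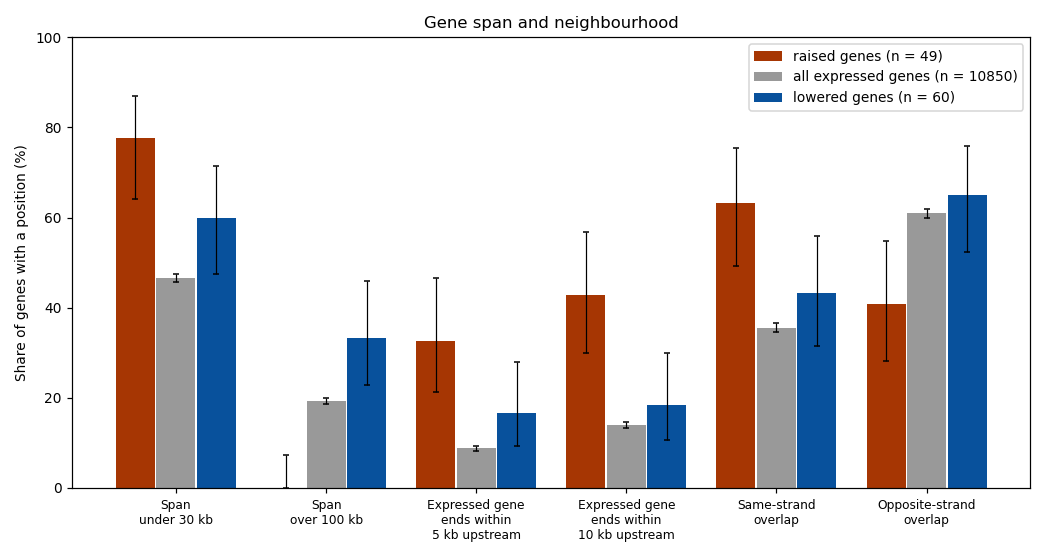
Share of genes with a position (vertical, %) that are short, long, preceded by an expressed gene on the same strand, or overlapped by an annotated gene, for the raised genes (brown), all expressed genes (grey) and lowered genes (blue), with 95% Wilson intervals. Raised genes have the highest share under 30 kb (77.6%) and with an upstream neighbour within 10 kb (42.9%), and none is over 100 kb.

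The shortest gap was that of LIME1, which began 0.141 kb past the end of ZGPAT. WDR66 began 0.295 kb past PSMD9, DHX58 0.397 kb past KAT2A, ZNF513 0.405 kb past PPM1G, CPT1B 0.494 kb past CHKB, CLDN15 0.638 kb past FIS1, AMH 0.654 kb past SF3A2 and TMEM86B 0.995 kb past PPP6R1. MROH6, with the largest ratio, began 2.01 kb past NAPRT, RAPGEFL1 4.84 kb past CASC3 and CARMIL2 5.81 kb past CTCF.

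Over the 21 pairs, the neighbour had the higher mean CPM in DMSO in 21, which its limit of 10 CPM favours, and in AAI in 13. The neighbour's own log2 change with AAI had a median of 0.07 in SCR cells (-0.70 to 1.83) and of -0.23 in siB cells (-0.94 to 1.36). The member's change was the larger one in every pair, as the choice of members all but fixes. PKD1P6, itself a member and the neighbour of NPIPP1, was the single neighbour with a change of at least 1. NAPRT changed by -0.32 and -0.78 in SCR and siB cells while MROH6 rose by 4.59 and 4.10.

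**Figure D5:**
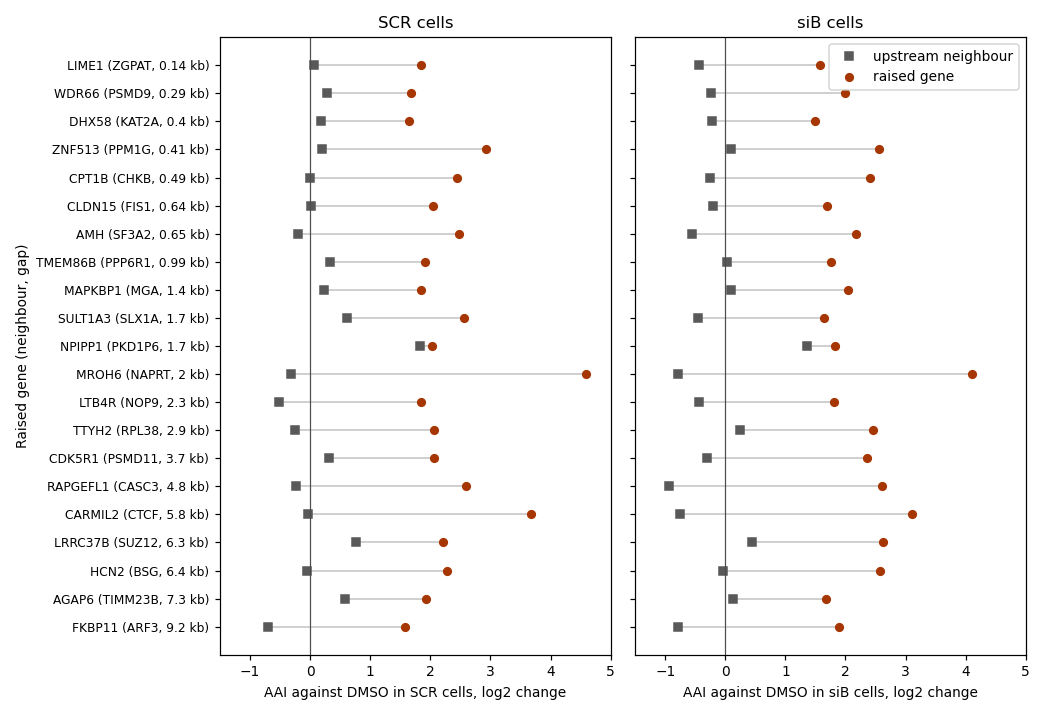
Log2 change with AAI of the 21 raised genes that begin within 10 kb downstream of an expressed same-strand gene (brown circles) and of that neighbour (grey squares), in SCR cells (left) and siB cells (right), ordered by the gap between them. Apart from PKD1P6 (1.83 and 1.36), the neighbours lie between -0.70 and 0.76 in SCR cells and between -0.94 and 0.44 in siB cells, and each raised gene lies to the right of its neighbour, as the choice of genes all but fixes.

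Overlap with other annotated genes limits how far a count belongs to a member. On the same strand 31 of 49 members (63.3%) overlapped another annotated gene, against 35.6% of expressed genes, and on the opposite strand 20 (40.8%) did, against 60.9%. Whether reads were counted by strand was not stated in the sources used here. On its own strand TRPV1 overlapped 4 genes, PKD1P6 5 and MC1R 3, while CARMIL2 and ZNF513 overlapped none. On the opposite strand PKD1P6 overlapped 2 genes, MC1R, CARMIL2 and ZNF513 overlapped 1 each and TRPV1 none. MROH6 overlapped no gene on either strand.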

How the data were processed

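Bulk RNA sequencing was done on HK-2 cells in 4 groups of 3 libraries. Titles gave each sample its group and replicate number, since a treatment field read DMSO for all samples, and the letters A and D in the column names were read as AAI and DMSO. Nothing stated whether replicates were separate cultures, so p-values measure the spread between these libraries, which may be technical.

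As the study describes it, the authors mapped paired-end reads to hg38 and made gene counts on a UCSC annotation through BioJupies. The aligner and any use of strand were not given in the sources used here. The deposited values were log10 of CPM plus 1. Here CPM was 10 raised to the value, minus 1. In every library, 100% of low values were whole multiples of the value of 1 read (tolerance 0.1 reads), so reads could be recovered. Depth was 15844015 to 42805294 reads, and 3 reads, the limit that a count of 0 allows, were 0.0701 to 0.189 CPM. Such limits cover counting error only, as do the Wilson intervals of shares.

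Members were found by the rule given in the report. Members and gene lists were chosen with earlier results of these data known. Pairs of groups were fitted with limma 3.58.1 in R 4.3.3 (mean-variance trend, 2-sided) on log2(CPM + 1), over genes that reached 1 CPM in 3 or more of the libraries fitted, with Benjamini-Hochberg adjustment over all genes tested. A call needed an adjusted p under 0.05 and at least 2-fold. The interaction was fitted over all 4 groups, with no fold limit. The script was tested on simulated data. Since the values were not counts, the recovered reads were fitted with voom as an alternative only. Same-numbered libraries were correlated over 14465 genes by their deviations from group means. With AAI, SCR and siB gave 0.635, 0.328 and 0.301, so the numbers were taken to pair them. With DMSO the values were 0.737, 0.607 and -0.199, and those libraries were not taken as paired. The main fits held no replicate term even so, with AAI too. A limma fit with one (the replicate block) was an alternative. With AAI 17 members passed an adjusted p under 0.05 by it, against 3 in the main fit.

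Gene spans were those of GENCODE release 44 (hg38), found through the symbol (48 members) or an older symbol (1). A gene's upstream neighbour was the nearest gene of the table on its strand, with a mean DMSO CPM of at least 10, that ended before its start. The genes described in full were the 15 with the largest ratio, the 10 most abundant with AAI, those at the limits of the rule, those on the lists and the 10 extremes of the knockdown change. Other members and all neighbours were named after their values were seen.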

Additional observations from a re-analysis of the deposited data

How the results depend on the processing

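The number of genes by the rule was 50 with median-ratio scaling (46 of them members) and 60 without the variable transcript AC010970.2 (57 members). It was 138 with a DMSO level of at least 1 CPM and 17 with at least 10 CPM. At over 1.5 times it was 162, and at over 3 times 19. With a library left out it was 58 to 72, each time with all 58 members, since this only loosens the rule. No member was called at 2-fold for the knockdown in either medium, or by the interaction, in any alternative. With no fold limit 1 member was higher and 2 were lower with AAI (3 in all, and 1 to 4 with a library left out). That count of 3 at an adjusted p alone was 17 with the replicate block (8 higher, 9 lower), 6 with median-ratio scaling, 1 with no filter, 1 with no trend and 0 with all 4 groups in the fit. It was 1 without SCR AAI replicate 3 and 1 without each siB AAI replicate in turn, so the 3 named differences depend on single libraries, apart from CARMIL2. The cause was not tested. The replicate block left every other call as it was. The median change of members with AAI was -0.12 to 0.09 with a library left out. The short share was 51.0% at under 20 kb (against 34.6% of expressed genes), 81.6% at under 40 kb and 76.6% in protein-coding genes alone. In the narrower window of 100 bases before to 50 after the start, CCAAT was found in 11.4%, GCGTG in 17.1%, and TGANTCA and the p53 half-site in 0.0% of members, as a shorter window holds fewer letters. A repeat of the fits without a library over the genes tested with all libraries, and the counts with no fold limit across alternatives, were chosen after seeing the data.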
